A study of Mus musculus with 36 samples.

Results

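The effect of a 40% high-fat diet (HFD) on epididymal white adipose tissue (eWAT), the fat pad of the male abdomen, was examined in ligatured CCL19-KI mice. These mice were chosen by their labels, which gave 3 mice fed the 40% HFD and 3 fed a normal diet (ND), or 6 of the 36 RNA-seq libraries of the study. All 6 were male C57BL/6 mice in which *Ccl19* had been knocked into the *Adipoq* locus (Adipoq-CCL19-KI), so that the chemokine is made where adiponectin is made, mainly in adipocytes. The diets were given from 6 weeks of age for 10 weeks, and a ligature around the second upper molars, which causes experimental periodontitis, was in place for the last 2 weeks. For comparison, the same contrast of diets was taken in 3 and 3 ligatured wild-type (WT) mice, which were bred separately, and in 3 and 3 CCL19-KI mice without ligature. Lymph nodes had been removed from the fat pads before RNA extraction. The 6 libraries held 12824995 to 17411941 reads, as recovered from the deposited values, and 3 reads correspond to 0.159 to 0.226 normalized CPM (read counts scaled to library size by the authors), the limit of detection used here. Expression is given as normalized CPM as deposited, and fold changes as the difference of the mean log2(normalized CPM + 1).

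Epididymal fat stores triglyceride in large adipocytes. When a mouse gains fat, adipocytes enlarge, take up more fatty acid and secrete more leptin, and genes such as *Sfrp5*, *Mest* and *Npr3* are known to be higher in expanding fat. In enlarged fat, macrophages that take up lipid from adipocytes, called lipid-associated macrophages, express lysosomal and lipid-handling genes such as *Gpnmb*, *Trem2* and *Atp6v0d2*. CCL19 is a ligand of the receptor CCR7 and guides dendritic cells and T cells.

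*Ccl19* (chromosome 4, 42754525 to 42756577, minus strand, GRCm38) was 28.8, 14.9 and 21.1 normalized CPM in the ND mice and 20.8, 12.7 and 34.7 in the 40% HFD mice. The groups overlapped, and the log2 fold change was 0.01 (95% interval -0.87 to 0.90, adjusted p = 0.989, limma). The paper reports pseudogenes near mouse *Ccl19*, so the split of reads between the gene and such copies is uncertain. In the 6 ligatured WT mice on the same diets, *Ccl19* was 0.507 to 2.79, below each of these 6 CCL19-KI libraries. *Adipoq* itself, at 470 to 1246 in the 6 libraries, and *Plin1*, the lipid droplet coat protein of adipocytes, at 599 to 1385 were abundant in all of them.

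Markers of tissues other than fat differed strongly among the 6 libraries, and ND replicates 1 and 2 stood furthest apart. The summed level of 26 epididymal epithelium genes was 3276, 1457 and 23.1 in the ND mice and at most 0.602 in the HFD mice. Sums of 23 smooth muscle and mural cell genes were 9858, 6383 and 1183 on the ND and 1688 to 2265 on the HFD, and those of 15 skeletal muscle genes were 770.9, 217.9 and 250.5 against 47.1 to 85.0. A set of 10 olfactory and brain neuron genes, chosen after their values were seen, was at 168.6, 283.9 and 196.9 in the ND mice. It was at 2.63 to 7.38 in the HFD mice and 3.38 to 5.88 in ND-fed ligatured WT mice. Single libraries of unligatured mice were high as well. The sum was 315.5 in ND-fed WT replicate 2, 125.1 in 40% HFD-fed WT replicate 2 and 661.3 in 60% HFD-fed CCL19-KI replicate 3. Sums of 23 hepatocyte genes were 11870, 1754 and 2712 on the ND and 12180, 55160 and 5652 on the HFD. None of the hepatocyte genes was at 0 in the HFD mice or in ND replicate 1, whereas 4 and 3 of them were at 0 in ND replicates 2 and 3. Sums of 7 red blood cell genes were 4869 in ND replicate 1 and 106.7 to 685.4 in the other 5 libraries. Other tissues with low sums in all 6 libraries were kidney tubule (13 genes, 103.3 to 225.3), exocrine pancreas (11 genes, 8.95 to 38.6) and germ cells (14 genes, 3.34 to 19.0). Counts are given without these libraries where they differ.

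**Figure D1:**
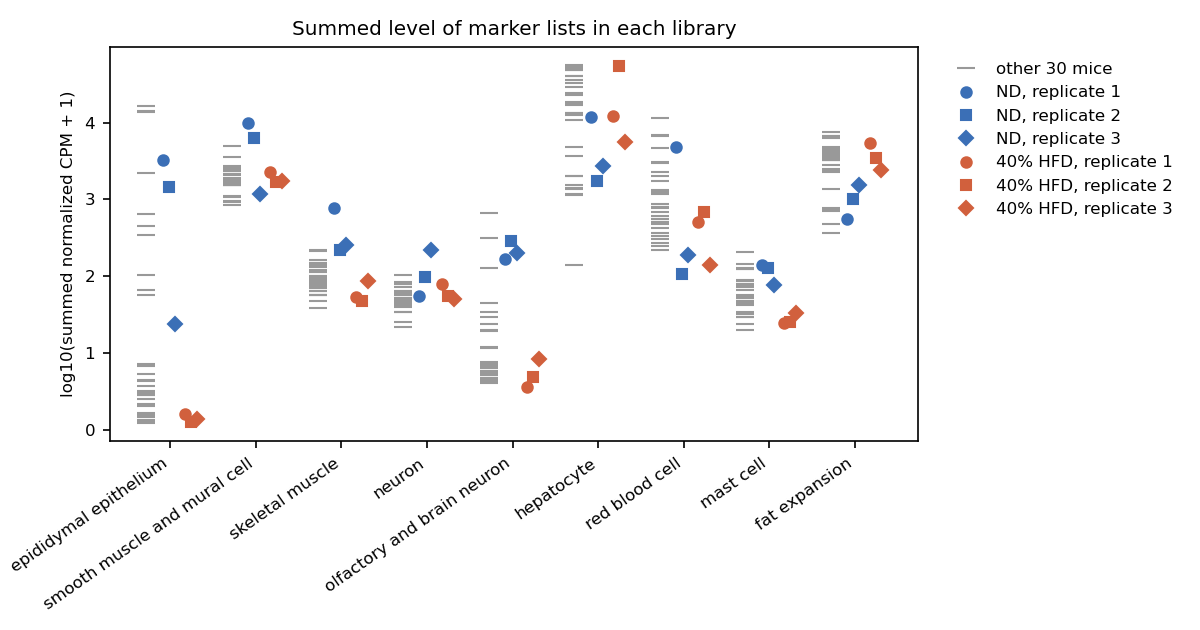
Summed level of the marker genes of 9 lists in each library, on the y axis as log10 of the summed normalized CPM + 1. Blue symbols are ND and orange symbols 40% HFD libraries of ligatured CCL19-KI mice, and grey dashes the other 30 mice. ND replicates 1 and 2 held epididymal sums of 3276 and 1457, whereas the HFD mice were at most at 0.602, and the fat expansion sums of the HFD mice (2406 to 5467) all lay above those of the ND mice (548.9 to 1526).

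A library of the comparison group also stood apart. In unligatured CCL19-KI mice fed the ND, the fat expansion genes summed to 4609 in replicate 1, a level of the HFD-fed mice, and to 364.7 and 715.0 in the others. *Lep* was 2200, 128 and 200 normalized CPM in these 3 libraries, and *Sfrp5* was 211, 7.18 and 30.0. Replicate 1 thus stood apart from the rest of its group. Unligatured WT mice fed the ND had fat expansion sums of 7577, 2420 and 3869, so such a level does not by itself go against an ND label. Values of unligatured CCL19-KI mice that include replicate 1 are followed by those without it.

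Of 16653 genes that reached 1 normalized CPM in 3 or more of the 18 ligatured mice, 1943 (11.7%) differed between the 40% HFD and the ND in ligatured CCL19-KI mice at a Benjamini-Hochberg adjusted p below 0.05 (limma, fitted on the 18 mice). Of these, 940 rose (5.64%) and 1003 fell (6.02%). By the criteria of the study for differentially expressed genes, which ask for an unadjusted p not above 0.05 and a ratio from 1.5 upward or 0.67 downward, 3317 genes (19.9%) were counted, 1521 higher and 1796 lower. The groups did not overlap in 4860 genes (29.2%), among them 917 of the risen and 932 of the fallen genes. An exact two-sided permutation test of a single gene in 3 against 3 mice cannot give a p below 0.1. The median log2 fold change was 0.74 among the risen genes, -1.25 among the fallen genes and 0.01 among all genes tested, and 270 genes rose and 652 fell by at least 2-fold. Risen genes made up 48.4% of the calls, but 34.4% after quantile normalization and 68.7% when only genes with a mean of at least 5 were tested.

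The number of calls depended on the libraries that stood apart. Without ND replicates 1 and 2, which were highest in epididymal and smooth muscle genes, 114 of the 940 risen and 282 of the 1003 fallen genes were called, with 940 and 998 of them in the same direction. Without ND replicate 3, these were 529 and 679. With the epididymal score of each mouse as a covariate, 9 risen and 44 fallen genes were called, and with the hepatocyte score 257 and 390. With edgeR on the recovered reads, 703 and 865 were called. In the fit with the epididymal score, no gene was called in the lists of fat expansion, adipocyte identity, fatty acid uptake and lipid droplets. The same held for the lists of fatty acid oxidation, lysosome and lipid-associated macrophages, all described below. Epididymal sums were higher in every ND mouse than in every HFD mouse. Smooth muscle and hepatocyte sums overlapped between the diets. ND replicate 3 had a smooth muscle sum of 1183, below the HFD mice, and ND replicate 1 had a hepatocyte sum of 11870, above HFD replicate 3 (5652). The part of these tissues in any single gene was not tested beyond these fits. In bulk libraries, fewer cells of a type and less RNA per cell cannot be told apart.

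The 10 genes with the largest rise whose groups did not overlap were led by *Slc5a7*, the choline transporter of cholinergic neurons. It lies on chromosome 17 (54273590 to 54299034, GRCm38) and was 0.212, 0.430 and 0.552 normalized CPM on the ND and 47.4, 33.4 and 9.65 on the 40% HFD, giving a log2 fold change of 4.23 ± 0.56 (SE, with an adjusted p = 0.000621, limma). *Lctl*, a member of the klotho-lactase family on chromosome 9 (64117147 to 64138118), rose from 4.55, 2.95 and 6.80 to 93.4, 57.9 and 53.5 (log2 fold change 3.60 ± 0.31). Its adjusted p of 2.47e-05 (limma) was the lowest among the risen genes named here. Both genes were low in every ND mouse and higher by a wide margin in every HFD mouse. *Fgf13*, an intracellular fibroblast growth factor homologue, was 2.12, 4.24 and 5.09 against 70.3, 39.2 and 42.0, and *Tph2*, which makes serotonin from tryptophan, was 0.159, 0.184 and 0.858 against 19.6, 10.6 and 3.51. *Slc5a7*, *Tph2* and *1700047G03Rik* were all highest in HFD replicate 1 and lowest in HFD replicate 3. The other members of this set were *Sfrp5*, *Thbs1* and *Peg10*, described below, *Marc1* (log2 fold change 3.22, adjusted p = 0.0165, limma), *Paqr9* (3.05, adjusted p = 0.00577) and *1700047G03Rik* (2.96, adjusted p = 0.00168). *Marc1* and *Paqr9* were highest in HFD replicate 2, at 134.5 and 237.4, as the hepatocyte genes were, and with the hepatocyte score as a covariate *Paqr9* was called and *Marc1* was not (adjusted p = 0.0215 and 0.114, limma).

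**Figure D2:**
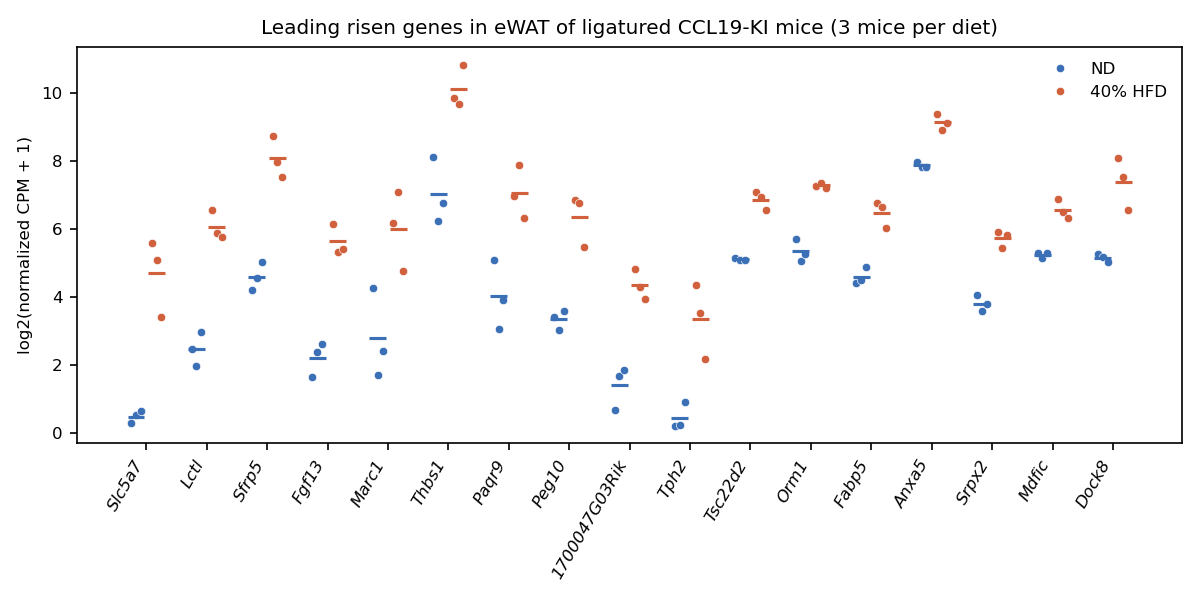
Level of the leading risen genes as log2(normalized CPM + 1) on the y axis, by gene on the x axis, with 1 point for each of the 3 ND (blue) and 3 40% HFD (orange) mice and a line at the mean. In each of these 17 genes, every HFD mouse lay above every ND mouse; *Slc5a7* was below 1 normalized CPM in every ND mouse and at 9.65 to 47.4 in the HFD mice.

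Genes with the most regular rise, chosen by the smallest p among genes with a mean of at least 20, were *Lctl*, *Tsc22d2*, *Orm1*, *Fabp5*, *Anxa5*, *Srpx2*, *Mdfic*, *Dock8*, *Sfrp5* and *Fgf13*. *Tsc22d2* was 34.8, 33.1 and 33.3 on the ND and 135.2, 121.6 and 94.4 on the HFD, a rise by 1.75 ± 0.18 on the log2 scale (adjusted p = 6.18e-05, limma). *Orm1*, an acute-phase plasma protein made in liver and fat, was 51.5, 32.4 and 37.3 against 153.7, 163.6 and 148.2 (1.94 ± 0.20). *Dock8*, an exchange factor of the cytoskeleton in leukocytes, was 37.5, 35.3 and 32.0 against 271.0, 185.7 and 94.3. *Anxa5*, a phospholipid-binding protein, rose by 1.27, *Srpx2* by 1.93 and *Mdfic* by 1.32 on the log2 scale. All of these 10 genes were called without ND replicates 1 and 2, with adjusted p of 0.000589 for *Orm1* and 0.0201 for *Sfrp5* (limma). *Orm1* has a near-identical copy, *Orm2*, and the split of reads between them is uncertain.

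The fat expansion genes were higher in each HFD mouse than in each ND mouse in 4 of 5 cases. Over all genes tested, 29.2% did not overlap between the groups in either direction. Of these 5 genes, 4 rose, against 5.64% of all genes, and none fell, and their median log2 fold change was 1.80, against 0.01 over all genes tested. After quantile normalization 2 were called, with a median of 1.41. This list and the lists below were chosen with earlier results of these data known. Their counts beside the share of all genes are therefore descriptive and no test of a list. *Lep*, which encodes the satiety hormone leptin, was 195, 379 and 569 normalized CPM on the ND and 2292, 1376 and 573 on the 40% HFD (1.80 ± 0.46, adjusted p = 0.0234, limma). The highest ND value and the lowest HFD value almost met. *Sfrp5*, a secreted inhibitor of Wnt ligands on chromosome 19 (42197971 to 42202252), was 17.5, 22.5 and 32.0 against 424.4, 252.0 and 185.5, a 12.0-fold higher mean. *Mest*, an imprinted gene of the hydrolase fold, was 73.7, 129.1 and 305.6 against 926.1, 606.0 and 594.1, and *Npr3*, the clearance receptor of natriuretic peptides, was 203, 395 and 579 against 1693, 1104 and 962. *Bmp3* overlapped between the groups, at 40.6 to 96.5 and 82.4 to 130.9 (adjusted p = 0.154, limma). Without ND replicates 1 and 2, *Sfrp5* alone among the 5 was called, whereas 4 were called without ND replicate 3. Among the ND mice, *Lep*, *Sfrp5*, *Mest* and *Npr3* all had their lowest value in replicate 1 and their highest in replicate 3, and replicate 3 was the ND library with the lowest epididymal and smooth muscle sums.

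Of 19 genes of fatty acid uptake and triglyceride synthesis, 7 rose, against 5.64% of all genes tested, and none fell, with a median log2 fold change of 0.85, or 0.57 with 4 called after quantile normalization, and 18 of the 19 were higher in mean. *Fabp5*, a fatty acid binding protein, was 20.3, 21.4 and 28.3 on the ND and 108.3, 100.5 and 64.5 on the HFD (1.90 ± 0.20, adjusted p = 9.05e-05, limma). *Angptl4*, an inhibitor of lipoprotein lipase that fatty acids induce, was 191, 188 and 227 against 494, 409 and 469. The fatty acid transporter *Cd36* was 1629, 1226 and 1858 against 4094, 2701 and 3564, and lipoprotein lipase itself, *Lpl*, was 2807, 2871 and 3310 against 7293, 4480 and 7945. In these 4 genes no HFD mouse reached down to an ND mouse. *Gpd1*, *Mogat2* and *Vldlr* were the other genes that rose. *Dgat2*, which makes triglyceride, was 244, 262 and 434 against 579, 572 and 569 and was not called (adjusted p = 0.0954, limma). Without ND replicates 1 and 2, 2 of the 19 were called, and without ND replicate 3, 7 were.

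Of 18 lipid droplet and lipolysis genes, 5 rose (*Aqp7*, *G0s2*, *Hilpda*, *Mgll* and *Plin2*), against 5.64% of all genes, and none fell, with all 18 higher in mean and a median of 0.65. The droplet coat protein *Plin2* was 191.0, 80.5 and 119.8 on the ND and 365.1, 490.5 and 251.5 on the HFD (adjusted p = 0.00900, limma). The glycerol channel *Aqp7* was 48.8, 33.3 and 63.8 against 190.2, 133.9 and 148.9. The lipases *Lipe* (539 to 838 against 808 to 1249, adjusted p = 0.223) and *Pnpla2* (608 to 1177 against 1080 to 1741, adjusted p = 0.225, limma) overlapped between diets and were not called. Of 19 genes of adipocyte identity and adipokines, 6 rose (*Aqp7*, *Cebpa*, *Itih5*, *Lep*, *Lpl* and *Rbp4*), against the same 5.64%, and none fell, with a median of 0.60. Quantile normalization left 3 lipid droplet genes called with a median of 0.38 and 4 adipocyte genes with a median of 0.26. Without ND replicates 1 and 2, 2 of the lipid droplet genes and none of the adipocyte genes were called by limma, while 4 of each were called without ND replicate 3. *Pparg* (52.2 to 134.7 against 100 to 140.1) and *Fabp4* (3197 to 6001 against 5873 to 7666) overlapped. *Cfd*, which encodes the adipokine adipsin, was 4954, 2903 and 6043 on the ND and 1470, 999 and 3610 on the HFD, not called (log2 fold change -1.34, adjusted p = 0.158, limma).

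Among 20 fatty acid synthesis genes, *Scd1* and *Me1* rose, against 5.64% of all genes, and none fell, with a median of 0.46, or 0.21 and no call after quantile normalization. *Scd1*, the desaturase that makes oleate, was 12890, 11300 and 12810 normalized CPM on the ND and 49700, 32620 and 37470 on the HFD, a 3.24-fold higher mean (adjusted p = 0.0424, limma). *Fasn* was 719 to 1164 against 849 to 2203, *Acaca* 354 to 408 against 315 to 697 and *Acly* 133 to 188 against 144 to 183, all with overlapping groups. Of 25 cholesterol genes, 4 rose (*Insig1*, *Hmgcs1*, *Sc5d* and *Dhcr7*), against 5.64% of all genes, and none fell, with a median of 0.51. Without HFD replicate 2, 2 were called with a median of 0.26, with the hepatocyte score as a covariate 1 was with a median of 0.15, and after quantile normalization 7 were. *Insig1*, which holds the sterol sensor in the endoplasmic reticulum and is itself a sterol-regulated gene, was 68.1, 53.0 and 63.9 against 159.5, 142.5 and 185.6 (adjusted p = 0.00396, limma). Neither list had a call without ND replicates 1 and 2. Of 20 genes of insulin signalling and glucose uptake, 2 rose, *Irs3* among them, against 5.64% of all genes, and none fell. The median was 0.28, or 0.23 without ND replicates 1 and 2, and 0.07 with 1 called after quantile normalization. *Slc2a4*, the insulin-dependent glucose transporter, was 46.2 to 48.4 against 52.5 to 91.4 and was not called (adjusted p = 0.254, limma).

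Fatty acid oxidation, the breakdown of fatty acids in mitochondria and peroxisomes, had the highest number of risen genes of any list. Of 29 genes, 15 rose, against 5.64% of all genes tested, and none fell, 28 were higher in mean, and the median log2 fold change was 1.06. *Acadl*, the long-chain acyl-CoA dehydrogenase, was 131, 89.0 and 118 on the ND and 235, 261 and 205 on the HFD (1.06 ± 0.21, adjusted p = 0.00654, limma). *Acadm*, its medium-chain counterpart, was 184, 140 and 182 against 392, 522 and 258. *Hadha*, a subunit of the mitochondrial trifunctional protein, was 169, 110 and 116 against 247, 351 and 219. In all 3 genes the highest value was in HFD replicate 2, which also had the highest hepatocyte sum. *Ehhadh*, an enzyme also abundant in liver, was 122, 22.9 and 28.3 against 124, 418 and 108 and was not called (adjusted p = 0.0895, limma). With the hepatocyte score as a covariate, 2 of the 29 genes were called and the median was 0.37. Without HFD replicate 2, 5 were called with a median of 0.78, and without ND replicates 1 and 2, 2 were called. Of 47 nuclear genes of oxidative phosphorylation, 4 rose (*Ndufa9*, *Ndufs1*, *Sdhc* and *Uqcrfs1*), near the 5.64% of all genes, and none fell, with a median of 0.14. None rose without ND replicates 1 and 2, without ND replicate 3 or without HFD replicate 2, and with the hepatocyte score 3 were called lower, with a median of -0.13. After quantile normalization 6 of them were called lower and none higher, with a median of -0.09.

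Hepatocyte genes themselves had the highest median log2 fold change of all lists, 5.16. Of 23 genes, *Apoa1* and *Fga* were called higher, against 5.64% of all genes, and 21 had an unadjusted p below 0.05. When ND replicates 1 and 2 were left out, 11 were called, with a median of 7.62. *Alb* was 4333, 7.67 and 9.31 on the ND and 5674, 26900 and 1724 on the HFD (adjusted p = 0.0537, limma). The high value in ND replicate 1 lay within the range of the HFD mice. Other genes named by the study in eWAT behaved alike. *Cyp2b9* was 0.318, 0 and 0 against 22.0, 104.8 and 1.54 (adjusted p = 0.0531 with limma and 0.0224 with edgeR). *Onecut1* was 0.847, 0 and 0 against 7.52, 52.8 and 0.950 (adjusted p = 0.0897 with limma and 0.0442 with edgeR). *Cyp2a22* (adjusted p = 0.145), *Acot3* (0.141) and *Kap* (0.230, limma) were likewise highest in HFD replicate 2. In each of these 5 genes, the order of the HFD mice was that of the hepatocyte sums, replicate 2 above 1 above 3.

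Risen lysosomal genes covered proteases, lipid hydrolases and the proton pump. Of 31 genes, 14 rose, against 5.64% of all genes tested, and none fell, 29 were higher in mean, and the median log2 fold change was 0.52. For 18 of the 31, every HFD mouse exceeded every ND mouse, where 29.2% of all genes did not overlap in either direction. Many lysosomal genes carry in their promoters a palindromic E-box, called the CLEAR element, that the factors of the TFEB family bind. The promoters of the 6 risen lysosomal genes that hold its core are shown because they let the letters be read beside the expression of the genes. Each window is 60 bases of the GRCm38.p6 assembly (RefSeq) upstream of the gene start on the strand of the gene, and capitals mark the 8-letter motif TCACGTGA where present and otherwise the first 6-letter core CACGTG. The windows lie at chr7:142387893-142387952, chr16:44139358-44139417, chr13:64370711-64370770, chr8:13159073-13159132, chr11:119267796-119267855 and chr11:101069994-101070053, in the order shown, the first 3 on the minus and the last 3 on the plus strand.
Ctsd: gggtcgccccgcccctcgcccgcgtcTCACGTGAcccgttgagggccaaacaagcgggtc
Atp6v1a: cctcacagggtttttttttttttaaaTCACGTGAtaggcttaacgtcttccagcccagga
Ctsl: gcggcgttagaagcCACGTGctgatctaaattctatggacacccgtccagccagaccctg
Lamp1: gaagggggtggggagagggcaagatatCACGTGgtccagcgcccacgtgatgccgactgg
Gaa: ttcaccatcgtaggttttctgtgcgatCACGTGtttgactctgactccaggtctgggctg
Naglu: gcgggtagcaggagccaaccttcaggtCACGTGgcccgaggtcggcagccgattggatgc

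Both motifs equal their own reverse complement, so a match is the same on either strand, and every match of the 8 letters is also a match of the core. Within the 250 bases upstream of the start, TCACGTGA was present in 5 of the 24 lysosomal genes with a promoter in the table (20.8%), of which 2 rose, and CACGTG in 10 (41.7%), of which 6 rose. Of all 24, with or without a motif, 12 rose. *Ctsa*, *Gla* and *Mcoln1*, which hold the 8 letters, and *Glb1*, which holds the core alone, were not called. A link of the motif to the rise was not tested. Of 11802 genes tested with a promoter, 1.56% held the 8 letters and 9.28% the core. Among all 712 risen genes with a promoter the shares were 2.25% and 11.8%, and among 728 fallen genes 1.37% and 6.87%. *Tfeb* itself was 11.8, 11.6 and 11.0 on the ND and 7.15, 13.1 and 6.65 on the HFD and was not called (adjusted p = 0.344, limma).

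*Ctsd*, the aspartic protease cathepsin D, was 746.8, 415.0 and 510.5 on the ND and 1372, 1138 and 1283 on the HFD (1.22 ± 0.17, adjusted p = 0.000914, limma). The cysteine proteases *Ctsb* and *Ctsl* were 1078, 692 and 811 against 1992, 1605 and 1721, and 279, 234 and 245 against 600, 549 and 402. In all 3 cathepsins, no HFD mouse fell into the range of the ND mice. *Lipa*, which splits cholesteryl esters and triglyceride in the lysosome, was 82.4, 47.2 and 54.5 against 150.8, 220.1 and 98.2. *Npc2*, which hands cholesterol out of the lysosome, was 401, 270 and 330 against 730, 517 and 599. The proton pump subunits *Atp6v1a* and *Atp6v1b2* rose, as did the membrane protein *Lamp1* (391, 301 and 324 against 481, 471 and 532). The other risen genes were *Gusb*, *Ctsz*, *Psap*, *Gaa*, *Naglu* and *Scarb2*. *Mcoln1*, a calcium channel of the lysosome, overlapped between the groups (23.1 to 27.6 against 25.0 to 26.5) and was not called. Without ND replicates 1 and 2, 4 of the 31 were called, *Ctsd* among them (adjusted p = 0.00103, limma), without ND replicate 3, 8 were, and with the hepatocyte score as a covariate, 3. Quantile normalization left 5 called and a median of 0.26.

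**Figure D3:**
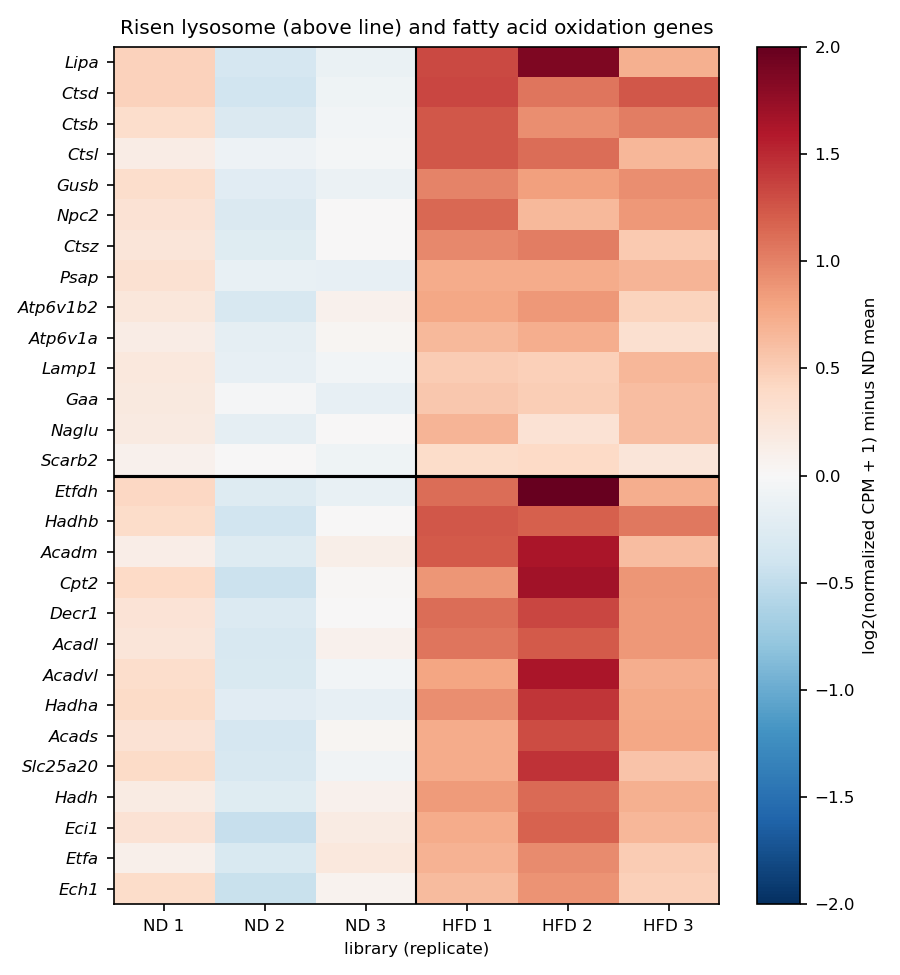
The 14 risen genes of the lysosome (above the line) and 14 of the 15 of fatty acid oxidation (below it) in each library, as the difference of log2(normalized CPM + 1) from the ND mean. Columns are the 3 ND and 3 40% HFD mice; red is higher than the ND mean. Lysosomal genes were higher in all 3 HFD mice, and all but 1 of the fatty acid oxidation genes shown were highest in HFD replicate 2, as in *Acadm* (521.7 against 391.5 and 257.8).

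Lipid-associated macrophage genes were split by mouse. Of 19 genes, 4 rose, against 5.64% of all genes, and none fell, with a median of 1.09. The median was 0.46 with 3 called without HFD replicate 2, 0.41 with 1 called when the hepatocyte score was a covariate, and 0.64 with 3 called after quantile normalization, and 2 were called without ND replicates 1 and 2. The 4 that rose were *Fabp5*, *Plin2*, *Lipa* and *Lpl*, which adipocytes and other cells also express. *Gpnmb*, a transmembrane glycoprotein that marks these macrophages, was 29.3, 33.2 and 33.2 on the ND and 103.4, 256.2 and 18.6 on the HFD (log2 fold change 1.298, 95% interval -0.58 to 3.18, adjusted p = 0.345, limma). *Atp6v0d2*, a proton pump subunit of macrophages and osteoclasts, was 2.38, 1.84 and 2.64 against 28.1, 51.8 and 3.44 (adjusted p = 0.0851 with limma and 0.0327 with edgeR). *Spp1*, the matrix protein osteopontin, was 1.96, 2.82 and 2.64 against 8.35, 28.0 and 1.02 (adjusted p = 0.393, limma). HFD replicates 1 and 2 were far above the ND mice in all 3 genes, and HFD replicate 3 was near or below them. This order, replicate 2 above 1 above 3, was also that of the hepatocyte sums. *Mmp12* (3.49, 4.97 and 7.29 against 83.0, 125.8 and 9.72) and *Itgax* (5.35, 5.46 and 4.41 against 19.8, 28.6 and 5.26) had the same order. *Trem2* was 10.0 to 17.0 against 7.53 to 27.4. Of 19 general macrophage genes, limma called none, none had an unadjusted p below 0.05, and edgeR called none. *Adgre1*, which encodes the F4/80 antigen, was 98.1, 37.1 and 44.7 against 90.9, 81.2 and 77.6.

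*Tnf*, *Ccl2* and *Il1b*, which encode classical inflammatory mediators, were low in these libraries. *Tnf* was 0.212, 0.614 and 0.368 on the ND and 0.301, 0.707 and 0 on the 40% HFD (log2 fold change -0.09, 95% interval -0.69 to 0.51, adjusted p = 0.868, limma). These values lie close to the limit of 3 reads, and a difference was not detectable at this depth. *Ccl2* was 3.76, 1.41 and 1.78 against 2.56, 2.90 and 3.44 (0.32, 95% interval -0.75 to 1.38). *Il1b*, at 0.371, 0.368 and 0.0613 against 0.827, 1.41 and 0.219, did not reach the filter and was not tested. Among 17 cytokines and receptors, only *Il33* was called, as lower on the HFD, where 6.02% of all genes tested fell. *Il33*, an alarmin of stromal and mesothelial cells that sustains regulatory T cells in fat, was 47.3, 86.1 and 67.3 on the ND and 12.3, 13.6 and 23.0 on the HFD (log2 fold change -1.98 ± 0.45, adjusted p = 0.0146, limma). Every HFD mouse lay well below every ND mouse. Of 14 mesothelial genes, whose sums were 1690 to 2494 on the ND and 887 to 2018 on the HFD, *Wt1* fell, from 59.6, 77.4 and 51.0 to 19.8, 17.2 and 41.5; the part of these cells in the *Il33* values was not tested. *Il33* was not called without ND replicates 1 and 2 (adjusted p = 0.125, limma).

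Chemokines and acute-phase genes moved in single members, where 5.64% of all genes tested rose and 6.02% fell. Of 27 chemokines and receptors, none rose and *Ccl21a*, *Cx3cl1* and *Cxcl14* fell. *Ccl21a*, the other ligand of CCR7, was 54.9, 36.0 and 59.4 on the ND and 0.451, 6.79 and 1.68 on the HFD, a 16.9-fold lower mean (adjusted p = 0.0361, limma). It has near-identical copies in the mouse genome, so its reads are of uncertain origin, and in ND-fed ligatured WT mice it was 6.41, 4.46 and 47.6. The fractalkine *Cx3cl1* was 3.76, 6.57 and 7.17 against 0.677, 1.77 and 1.68. Of 19 complement and acute-phase genes, *Orm1*, *Orm2* and *C4b* rose and *Lcn2* fell. *Lcn2*, a siderophore-binding protein, was 26.2, 24.8 and 18.8 against 4.74, 4.60 and 4.75 (adjusted p = 0.00207, limma), and *C4b* was 1087, 757 and 1100 against 1854, 1666 and 1627. In the lists for antigen presentation and dendritic cells (19 genes), B and plasma cells (15), interferon-stimulated genes (24) and cell proliferation (24), limma and edgeR each called none. Unadjusted p below 0.05 were found for 1, 2, 4 and 0 of them. Of 14 T and NK cell genes, *Il2ra* rose, from 2.01, 2.33 and 2.02 to 4.81, 3.61 and 4.31, while *Cd3e* stayed at 0.123 to 0.798 against 0.527 to 1.34 and was not called.

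Of 33 collagen and matrix genes, 5 rose (*Thbs1*, *Col4a1*, *Col4a2*, *Col12a1* and *Nid1*), against 5.64% of all genes, and none fell, with a median of 0.39, or 0.06 with 1 called after quantile normalization. *Thbs1*, thrombospondin 1, a matricellular activator of TGF-β on chromosome 2 (118111876 to 118127133), was 275.5, 74.6 and 107.8 on the ND and 928.3, 823.1 and 1825 on the HFD (3.09 ± 0.55, adjusted p = 0.00400, limma). *Col4a1* was 415, 418 and 470 against 1169, 656 and 859, *Col4a2* was 172, 235 and 251 against 750, 414 and 453, and *Nid1* was 665, 632 and 769 against 1721, 1087 and 1252. These type IV collagens and nidogen are made by adipocytes and endothelial cells alike. *Col1a1* was 665, 754 and 721 against 440, 307 and 467 and was not called (log2 fold change -0.84, adjusted p = 0.210, limma). *Adamts5*, an aggrecanase, was 122.9, 141.5 and 170.2 against 616.8, 389.4 and 395.0 (1.66 ± 0.27, adjusted p = 0.00191, limma), and with *Mmp19* it was the risen gene of 23 in matrix turnover and fibrosis signalling. A single collagen and matrix gene, *Thbs1*, was called without ND replicates 1 and 2. *Col6a5*, a type VI collagen chain, was among the 10 genes with the most regular fall, at 468.8, 777.6 and 509.7 against 46.2, 45.7 and 48.3 (log2 fold change -3.58 ± 0.64, adjusted p = 0.00400, limma). In unligatured CCL19-KI mice it was 42.6, 242 and 262 on the ND, lowest in the replicate 1 that stood apart, and 246, 35.1 and 145 on the HFD.

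Other lists held few calls, where 5.64% of all genes tested rose and 6.02% fell. Of 23 genes of the unfolded protein response, *Hspa5*, the chaperone BiP, rose from 340, 263 and 221 to 416, 486 and 439, and *Atf6* rose as well, and 1 of the 23 was called without ND replicates 1 and 2 and none without ND replicate 3. Of 21 endothelial genes, *Cdh5* rose and *Angpt1* fell, with a median of 0.35. Of 18 progenitor and fibroblast genes, *Dlk1* fell from 1.06, 1.47 and 0.797 to 0.0752, 0 and 0. Of 19 circadian clock genes, *Clock* rose, and of 11 thermogenic genes, *Otop1*, at 0.0529, 0 and 0 against 1.88, 1.06 and 0.877. Among kidney, pancreas, germ cell and red blood cell markers, *Cela1* and *Sycp3* rose and *Pax8*, *Aqp2* and *Slc4a1* fell. *Pax8*, a factor also of epididymal epithelium, was 41.7, 30.6 and 2.33 on the ND and 0.226, 0.919 and 0.146 on the HFD, an order that was also that of the epididymal sums on the ND.

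The largest falls were those of epididymal and smooth muscle genes and rested on ND replicates 1 and 2. *Akr1b7*, an aldo-keto reductase abundant in the reproductive tract, was 7337, 4088 and 5.94 normalized CPM on the ND and 0, 0.212 and 0.0731 on the HFD, a mean at least 17400-fold lower on the HFD when the HFD level is set to 3 reads per library. *Crisp1*, a sperm-coating protein of the epididymis, was 2208, 932.1 and 9.62 against at most 0.0752, at least 4793-fold lower by the same bound. *Myh11*, the smooth muscle myosin heavy chain, was 1310, 603.7 and 19.9 against 6.92, 6.22 and 2.78 (log2 fold change -5.41 ± 1.15, adjusted p = 0.0105, limma). *Ptgs2*, the inducible cyclooxygenase, was 1055, 658.1 and 5.09 against 0.978, 1.84 and 3.80, in the same order. *Actg2*, *Cnn1*, *Serpina1f*, *Pcp4* and *Spink8* completed these, each at 192.6 to 730.0 in ND replicates 1 and 2 and at 0.980 to 3.43 in ND replicate 3. None of these 9 genes was called without ND replicates 1 and 2 (adjusted p = 0.311 to 0.806, limma). Of 22 smooth muscle and mural cell genes tested, 13 fell, against 6.02% of all genes, and *Synpo2* rose, with a median of -2.29. Without the same 2 libraries, none fell. Pericyte genes of this list, such as *Rgs5* (49.5 to 76.4 against 70.0 to 95.5) and *Notch3* (9.27 to 12.7 against 9.62 to 12.7), overlapped between diets. Of 26 epididymal genes, 6 passed the filter on low values and 4 of these were called lower, which is no support for a fall, since they passed largely through the ND libraries in which they were high.

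Of 14 skeletal muscle genes tested, 10 fell, against 6.02% of all genes, with a median of -2.62 (-2.99 with genes at the limit set to their bound), and 8 were called without ND replicates 1 and 2 and 10 without ND replicate 3. *Ckm*, muscle creatine kinase, was 118.0, 27.4 and 10.4 on the ND and 0, 0.283 and 1.75 on the HFD, and *Actn3* was 27.7, 23.8 and 20.5 against 0.978, 0.848 and 2.34. *Rims1*, a scaffold of the presynaptic active zone, had the lowest adjusted p of all genes and was 22.7, 14.5 and 17.6 against 0, 0.0707 and 0.439 (log2 fold change -4.04, adjusted p = 6.51e-06, limma). *Rbfox3*, the neuronal nuclear antigen NeuN, was 27.5, 15.7 and 9.25 against 0, 0.354 and 0.0731. *Dpp6*, a subunit of neuronal potassium channels, was 33.5, 24.1 and 14.8 against 0, 0 and 0.219, at least 110-fold lower by the bound of 3 reads. *Kif5c*, *Ncam1* and *Map1b*, all of axons or neuronal contacts, also fell. In ND-fed ligatured WT mice, *Rims1* was at most 0.0507 and *Dpp6* at most 0.155. *Rims1*, *Rbfox3* and *Dpp6* exceeded 1 normalized CPM in every ND CCL19-KI mouse and in no HFD CCL19-KI mouse. The ND libraries alone thus let them pass the filter on low values, so their calls are no support for a fall of neuronal genes. *Omp*, a marker of olfactory sensory neurons, was 0.424, 75.6 and 45.5 in the ND CCL19-KI mice, low in replicate 1, and at most 0.512 in the HFD mice. Of 10 neuronal genes tested, *Rbfox3* and *Stmn2* fell and *Syp* rose, with a median of -1.47. The sums of 13 neuronal genes were 54.9, 96.9 and 216.8 on the ND and 48.8 to 78.0 on the HFD, so that ND replicate 1 lay within the range of the HFD mice. Among neuronal genes 6 were called lower without ND replicates 1 and 2, and 1 without ND replicate 3. All 10 olfactory and brain neuron genes fell, which is no support for a fall, since the set was chosen after their values were seen. The groups did not overlap in 6 of them. Their median log2 fold change was -2.9, or -3.75 without ND replicates 1 and 2. Without ND replicate 3 it was -2.45, with 4 called. The part of RNA from nerve, muscle or olfactory tissue in the 3 ND libraries was not tested.

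Among abundant genes of ordinary cells, *Drap1*, a corepressor of transcription, was 101.4, 99.7 and 99.5 on the ND and 61.5, 61.3 and 56.5 on the HFD, a fall of small size and small spread (log2 fold change -0.74 ± 0.11, adjusted p = 0.00110, limma). *Pdp1*, the phosphatase that activates pyruvate dehydrogenase, was 38.5, 45.7 and 41.7 against 20.0, 16.5 and 22.8, and *Ssbp2* was 33.4, 33.0 and 29.0 against 17.2, 14.9 and 16.2. *Rbbp7*, a histone-binding protein, was 180, 156 and 125 against 78.9, 80.5 and 89.0. *Rps13*, of the small ribosomal subunit, was 149.4, 132.5 and 104.4 against 63.6, 65.7 and 53.4 (adjusted p = 0.00137, limma). Of these, *Drap1* and *Pdp1* were called also without ND replicates 1 and 2 (adjusted p = 0.0279 and 0.0290, limma). Ribosomal protein genes have many processed copies, so the reads of *Rps13* are of uncertain origin. Of 81 cytosolic ribosomal protein genes, a list chosen after values were seen, 29 fell, against 6.02% of all genes, and none rose. The median was -0.45, and 78 were lower in mean. As the list was chosen from these values, the counts are no test of it. After quantile normalization 73 were called lower, with a median of -0.82. No ribosomal protein gene was called without ND replicates 1 and 2, and 38 were called without ND replicate 3.

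Some mast cell genes, picked after their values were seen, were lower on the HFD in ligatured CCL19-KI mice. Of these 9 genes, 8 fell, against 6.02% of all genes. Every HFD mouse lay below every ND mouse in all 9, where 29.2% of all genes did not overlap in either direction. Because of how the genes were picked, these counts are no support for a fall of mast cell genes as a group. *Mcpt4*, a chymase of connective tissue mast cells, was 29.2, 25.4 and 16.2 on the ND and 4.44, 3.11 and 6.58 on the HFD (log2 fold change -2.11, adjusted p = 0.0235, limma), and *Cma1*, another chymase, was 21.8, 17.4 and 12.2 against 2.63, 2.55 and 5.34. *Kit*, the receptor of stem cell factor, was 11.2, 10.4 and 8.82 against 4.36, 4.74 and 5.04. The summed level of the 9 genes was 75.7 to 140.1 on the ND and 23.5 to 32.1 on the HFD. In unligatured CCL19-KI mice the sums were 28.0 to 55.5 (47.2 and 55.5 without replicate 1) and 18.7 to 74.9, and in ligatured WT mice 51.1 to 87.1 and 22.5 to 73.9, with overlap between the diets in both. None of the 9 was called without ND replicates 1 and 2 by limma, and 8 were called without ND replicate 3.

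The same change of diet was then compared in ligatured WT mice. There, 224 genes (1.35%) were called, of which 169 were higher (1.01%) and 55 lower (0.33%). A WT library also stood apart: epididymal sums were 342.2, 2.02 and 2.17 in HFD-fed and 1.86, 1.01 and 5.73 in ND-fed ligatured WT mice. HFD replicate 1, the highest of these, enters all comparisons with WT mice. Of the 940 genes risen in CCL19-KI mice, 864 (91.9%) were also higher in mean in WT mice, against 51.7% of all genes tested, and 116 of them (12.3%) were called, which were 68.6% of the genes called higher in WT mice. Of the 1003 fallen genes, 657 (65.5%) were lower in WT mice, and 20 (1.99%) were called, 36.4% of the genes called lower there. No gene was called in opposite directions. Of the 10 largest rises, *Slc5a7*, *Lctl*, *Sfrp5*, *Fgf13* and *1700047G03Rik* were also called in WT mice, and *Marc1*, *Paqr9*, *Thbs1*, *Peg10* and *Tph2* were not (adjusted p = 0.0573 to 0.653, limma). *Sfrp5* was 3.45, 17.2 and 8.20 in WT mice on the ND and 232, 142 and 260 on the HFD (log2 fold change 4.51), and *Slc5a7* was 0.138, 0.253 and 0.0774 against 59.1, 7.78 and 24.6 (4.37). *Lctl* rose by 2.14 in WT mice, less than the 3.60 in CCL19-KI mice, but the difference of 1.46 was not called (95% interval 0.53 to 2.38, adjusted p = 0.213, limma). *Ctsd* rose by 0.77 in WT mice, from 744, 799 and 765 to 1420, 1230 and 1300, and *Thbs1* was higher by 1.26 on the log2 scale, which was not called (adjusted p = 0.254, limma).

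**Figure D4:**
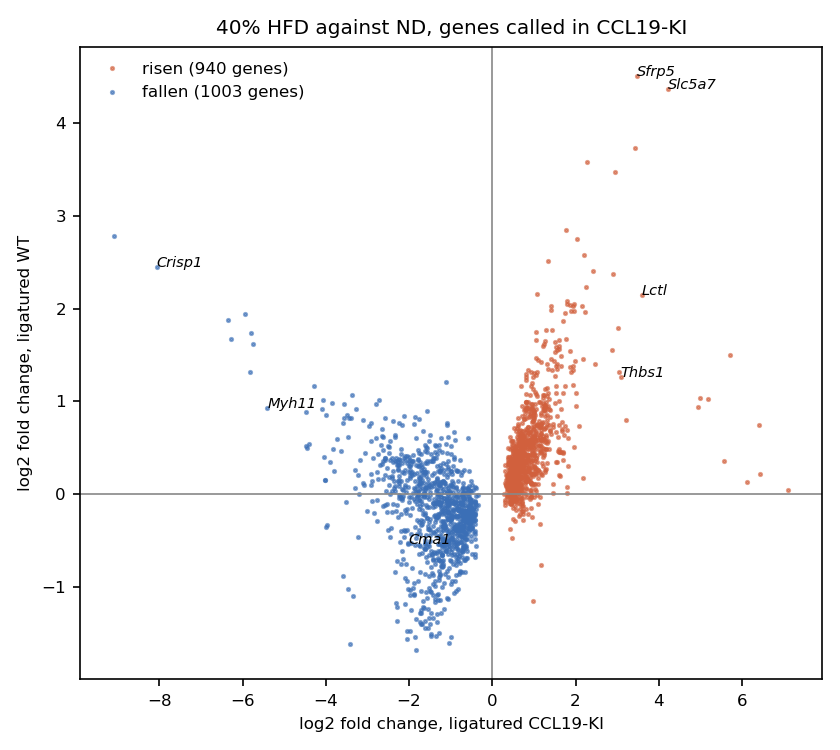
Log2 fold change of the 40% HFD against the ND in ligatured CCL19-KI mice (x axis) and in ligatured WT mice (y axis) for the 940 risen (orange) and 1003 fallen (blue) genes of CCL19-KI mice. Of the risen genes, 864 lay above 0 in WT mice. Epididymal and smooth muscle genes such as *Crisp1* (-8.06) and *Myh11* (-5.41) lay at the far left and were not lower in WT mice. In HFD-fed WT mice *Crisp1* was 223, 0.38 and 0.642, so its WT value rested on replicate 1.

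A test of the difference between the genotypes, the interaction of diet and genotype, called 79 genes (0.474%), 5 more positive and 74 more negative in CCL19-KI mice. Of the 74, 72 were among the fallen genes, an overlap that is largely built in, since both tests use the same CCL19-KI libraries. When only genes with a mean of at least 5 were tested, 3 genes were called, and with the epididymal score as a covariate 7 were. *Dpp6*, *Ckm*, *Kif5c*, *Rims1* and *Rbfox3*, the neuronal and muscle genes above, had the largest differences, -5.37, -4.99, -4.95, -4.44 and -4.25. All of them were high enough in the ND CCL19-KI libraries alone to pass the filter, so their calls are no support for a diet effect that depends on genotype. In all 5 genes with a more positive effect in CCL19-KI mice (*Gm20458*, *Scand1*, *Zfp771*, *Pcsk6* and *Lpp*), the mean was lower on the HFD in WT mice and higher in CCL19-KI mice. *Zfp771* was 11.0, 11.6 and 10.4 against 3.37, 3.23 and 2.97 in WT mice and 3.49, 4.48 and 4.84 against 7.00, 6.43 and 4.31 in CCL19-KI mice. *Pcsk6*, a proprotein convertase of the matrix, was 189, 191 and 148 against 154, 148 and 170 in WT mice and 112.8, 100.4 and 113.2 against 192.0, 182.2 and 252.8 in CCL19-KI mice. None of the fat expansion, lipid or lysosome genes was among the 79, which does not show that the diet acted alike in both genotypes.

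In unligatured CCL19-KI mice, limma called 0 of 17852 genes (0.0%) between the 40% HFD and the ND, with 1486 at an unadjusted p below 0.05. Without ND replicate 1, whose fat genes stood at the level of the HFD mice, 732 (4.1%) were called, 616 higher and 116 lower. That library was left out after its values were seen, for its high fat genes. A larger rise of fat genes without it follows from this choice and is no support for the rise with ligature. Of the 940 genes risen in ligatured CCL19-KI mice, 809 were higher in unligatured mice, where 49.8% of all genes were higher, and 739 without that library, where 48.2% were, and 237 were called higher without it. Of the 1003 fallen, 830 were lower (784 without that library) and 8 were called lower without it. The difference of the diet effect between ligatured and unligatured CCL19-KI mice, tested in a fit of all 36 mice, was called in 0 genes (0.0%) by limma and 0 by edgeR, with 1190 at an unadjusted p below 0.05. In unligatured mice the log2 fold changes of *Lctl*, *Sfrp5* and *Ctsd* were 1.72, 2.43 and 0.97, or 3.36, 3.68 and 1.56 without ND replicate 1, beside 3.60, 3.48 and 1.22 with ligature. Fatty acid oxidation genes had a median of -0.10 in unligatured mice, or -0.68 without ND replicate 1, and hepatocyte genes 1.03, or -0.89. Hepatocyte sums of these mice were 1371, 39990 and 47660 on the ND and 10780, 54410 and 32280 on the HFD. Leaving out ND replicate 1 thus leaves ND libraries that are high in hepatocyte genes. The part of liver transcripts in the fatty acid oxidation medians was not tested. Collagen and matrix genes had a median of 0.73, or 1.10 with 10 of 33 called.

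**Figure D5:**
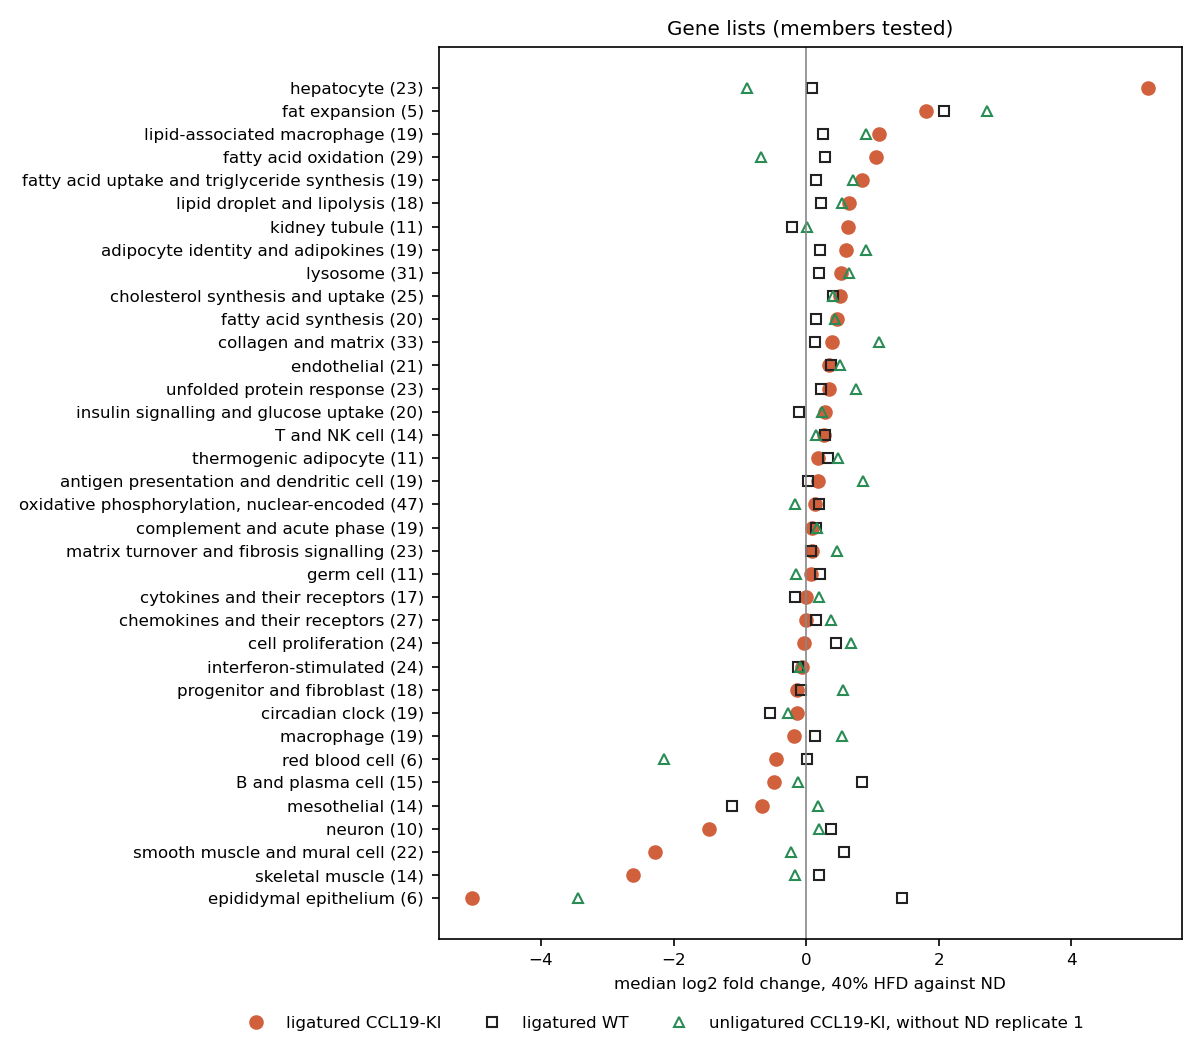
Median log2 fold change of the 40% HFD against the ND over the tested members of each gene list (number of members in parentheses) in ligatured CCL19-KI mice (circles), ligatured WT mice (squares) and unligatured CCL19-KI mice without ND replicate 1 (triangles). Fat expansion genes were at 1.80, 2.08 and 2.73. Fatty acid oxidation and hepatocyte genes were high in ligatured CCL19-KI mice (1.06 and 5.16) and below 0 in unligatured ones. With ND replicate 1 the 3 lists stood at 1.78, -0.10 and 1.03 in unligatured mice. That replicate was left out for its high fat genes, and it also had the lowest hepatocyte sum (1371) of the unligatured CCL19-KI mice shown.

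Ligatured CCL19-KI mice fed a 60% HFD shared the ND mice as controls, so their values are given side by side without a test of likeness. *Lctl* was 216, 194 and 145 normalized CPM on the 60% HFD and 93.4, 57.9 and 53.5 on the 40% HFD. *Slc5a7* was 131, 110 and 137 against 47.4, 33.4 and 9.65, and *Lep* was 2550, 2730 and 2490 against 2292, 1376 and 573. *Ctsd* was 1930, 1940 and 1890 against 1372, 1138 and 1283. In these genes the 60% HFD mice lay above the 40% HFD mice. *Gpnmb* was 259, 483 and 59.3 on the 60% HFD, also with a low value in a single mouse, and *Atp6v0d2* was 66.3, 114 and 11.2. *Thbs1*, at 651, 237 and 353, lay below the 40% HFD mice (928.3, 823.1 and 1825).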

How the data were processed

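Total RNA of eWAT was depleted of ribosomal RNA and sequenced as paired ends. Per the labels and the paper's methods, reads were trimmed with Trimmomatic 0.38, mapped with Bowtie2, quantified with RSEM 1.3.0 and normalized with edgeR. The methods name mm10 transcripts and the submitters' processing notes GRCm39. The annotation release is not given in the sources used here. The deposited values are a signal, edgeR-normalized CPM made by the authors, and 100% of them were integers, within 0.01, once divided by what 1 read is worth, from which reads were recovered. Column sums therefore differ between libraries, from 799716 to 1208061, and the recovered depth over the 36 libraries was 11962228 to 21581595 reads.

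From these values log2(normalized CPM + 1) was tested with limma 3.58.1 (linear model with trended empirical Bayes, R 4.3.3) in the 18 ligatured mice, with a coefficient for each group, for genes of at least 1 normalized CPM in at least 3 libraries. The comparison of ligatured with unligatured mice used all 36. A gene was called at a Benjamini-Hochberg adjusted p below 0.05. The recovered reads were tested with edgeR 4.0.16 as an alternative, and other filters, pseudocounts, scalings, covariates and left-out libraries were tried. The value of 3 reads was taken as the limit of detection, which covers counting error only. Intervals are 95% intervals of the fit. In data simulated for the main comparison on 16653 genes, 17 of 100 genes changed 2-fold and 91 of 100 changed 4-fold were recovered, and 14 unchanged genes were called. The simulation gave all genes the same set spread and all libraries the same mix of tissues, unlike the real libraries.

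Genes named were the 10 largest rises and falls with non-overlapping groups and a mean of at least 5, the 10 rises and falls of smallest p with a mean of at least 20, members of 37 gene lists, genes named by the study, and the 5 largest differences in each direction between genotypes. The members and lists were chosen with earlier results of these data known, and the mast cell, olfactory, imprinted and ribosomal lists after their values were seen. Some list members are not reported here by name. Groups follow the labels, which mark 18 mice as ligatured and 18 as not, while the series' design text speaks of ligature for all. The labels give 1 library per mouse, and no 2 libraries of the 6 agreed within sampling noise. Gene positions are those of GENCODE vM21 on GRCm38, matched by gene identifier, and promoters those of RefSeq on GRCm38.p6. The authors' normalization assumes that most genes do not change, and tissue other than fat in a pad takes a share of its reads.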

Additional observations from a re-analysis of the deposited data

Results flagged for a closer look

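The effect of the 40% HFD differed between ligatured CCL19-KI and ligatured WT mice in 79 genes by the test of the difference itself (limma, adjusted p below 0.05). The largest differences toward a more positive effect in CCL19-KI mice, as CCL19-KI minus WT on the log2 scale, were in *Gm20458* (2.14), *Scand1* (2.12), *Zfp771* (1.90), *Pcsk6* (1.07) and *Lpp* (0.804). *Gm20458* was 1.59, 3.04 and 3.95 normalized CPM in WT mice on the ND and 0 in all 3 on the HFD. *Scand1*, a SCAN domain protein, was 6.34, 9.98 and 14.5 against 2.63, 4.49 and 4.73 in WT mice and 2.01, 3.38 and 4.60 against 7.67, 7.78 and 6.29 in CCL19-KI mice. *Lpp*, an adaptor of focal adhesions, was 171, 159 and 178 against 124, 144 and 125 in WT mice. The largest differences toward a more negative effect were in *Dpp6* (-5.37), *Ckm* (-4.99), *Kif5c* (-4.95), *Rims1* (-4.44) and *Rbfox3* (-4.25), genes of neurons and muscle that were higher in each of the 3 ND CCL19-KI mice than in the other ligatured mice of these comparisons, in which the highest value was 18.6 for *Kif5c* in 1 HFD-fed WT mouse. Without ND replicate 3 of the ligatured CCL19-KI mice the difference was called in 330 genes, and without both other ND replicates in 277.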

How the results depend on the processing

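Of 1943 genes called in ligatured CCL19-KI mice, the count stayed within 1.5 times with edgeR (1732), median-of-ratios scaling (1922), quantile normalization (1581), no filter (2142), pseudocounts of 0.1 (1829) and 5 (1994) and a replicate block (1980). It was 1190 with a mean of at least 5, 922 with a change of at least 2-fold, 879 in a fit of all 36 mice, 398 in a fit of the 2 groups alone, 600 without ND replicates 1 and 2, 813 with the hepatocyte score, 463 with the smooth muscle score and 53 with the epididymal score as a covariate, and 9522 with sample quality weights, whose estimation did not converge. Leaving out 1 library gave 542 to 2254, with 542 without ND replicate 2, 586 without HFD replicate 1 and 971 without HFD replicate 2. Fewer samples or genes enter several of these fits; the cause of the other changes was not tested.

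The 79 genes that differed from WT mice became 39 with edgeR, 3 with a mean of at least 5, 47 with a pseudocount of 0.1, 277 without ND replicates 1 and 2, 143 with the smooth muscle score, 7 with the epididymal score and 2870 with quality weights, and 43 to 330 with 1 library left out. These were 247 without ND replicate 1 and 330 without ND replicate 3 of the CCL19-KI mice, 43 without HFD replicate 1 of the CCL19-KI mice, 52 without HFD replicate 1 and 46 and 43 without ND replicates 1 and 2 of the WT mice. The 0 genes that differed from unligatured mice became 232 without ND replicates 1 and 2, 2 with the epididymal score, 1 without a filter, 1 with a pseudocount of 5 and 7461 with quality weights, and 0 to 158 with 1 library left out: 158, 6 and 2 without ND replicates 1, 2 and 3 of the ligatured mice and 23 and 1 without ND replicates 1 and 2 of the unligatured mice.

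The replicate numbers did not pair the samples: correlations of same-numbered deviations were -0.16, -0.43 and 0.39, and not every sample correlated best with its own number. With the replicate block 1980, 78 and 0 genes were called in these 3 comparisons. With the epididymal score as a covariate the log2 fold change reversed, uncalled, in *Akr1b7* (2.41), *Crisp1* (1.38), *Cnn1* (0.0304), *Serpina1f* (2.07), *Spink8* (1.55) and *Ptgs2* (1.03), and with the smooth muscle score in *Actg2* (0.0268), *Cnn1* (0.158), *Serpina1f* (0.528), *Spink8* (0.08) and *Ptgs2* (0.424). Of 2-fold changes the simulated data recovered 17 of 100. In those data few genes were changed, all genes had the same set spread, and no library differed in its tissues. How often changes of this size are missed in the real libraries was therefore not tested.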

Other observations

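Imprinted genes, a list chosen after values were seen, changed in both directions in ligatured CCL19-KI mice. Because of that choice, the counts of the list are no support for a change of imprinted genes as a group. Of 16 genes, 5 rose (*Peg10*, *Mest*, *Peg3*, *Igf2r* and *Gnas*) and 3 fell (*Igf2*, *Dlk1* and *Rasgrf1*), against 5.64% and 6.02% of all genes, and 2 and 2 were called without ND replicates 1 and 2. *Peg10*, a retrotransposon-derived gene, was 9.74, 7.18 and 11.1 normalized CPM on the ND and 114.0, 107.1 and 43.8 on the 40% HFD (log2 fold change 3.01, adjusted p = 0.000995, limma). *Peg3*, a zinc finger protein, was 102.4, 61.0 and 123.6 against 632.3, 416.8 and 518.1. *Igf2r*, the receptor that clears insulin-like growth factor 2, was 119.1, 95.5 and 91.7 against 172.3, 168.0 and 165.3, whereas the growth factor itself, *Igf2*, was 4.34, 7.37 and 7.54 against 0.226, 1.13 and 0.219. Every HFD mouse lay on 1 side of every ND mouse in these 4 genes. After quantile normalization the median of the list turned from 0.31 to -0.03, with 4 higher and 3 lower.

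Brown and beige fat genes were not raised as a list. Of 11 thermogenic genes tested, *Otop1* alone was called, and edgeR called 1. *Syp*, a synaptic vesicle protein, rose from 4.18, 12.3 and 24.1 to 66.2, 39.8 and 24.4, while the other neuronal genes called, *Rbfox3* and *Stmn2*, fell.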
